A study of Homo sapiens with 346 samples.

Results

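The genes described here encode the proteasome, the protease that breaks down ubiquitin-tagged proteins in the cytosol and nucleus. They were taken as every row of both gene tables whose symbol starts with PSMA, PSMB, PSMC, PSMD, PSME, PSMF or PSMG and a number. Of the rows listed, 52 met the pattern for each line and 5 antisense rows were left out, so that 47 genes remained, among 28806 genes for HCT-116 and 29551 for HepG2. PSMC3IP, a meiotic recombination factor named for binding PSMC3, was set apart, and the other 46 genes are described. The measured material was full-length cDNA (Smart-seq2) of single cells from HCT-116, a human colorectal carcinoma line, and from cells labelled HepG2, a line of human liver tumour origin. Within each line, live cells were set against cells fixed in 80% methanol and kept frozen for 1 week, which addresses how far fixation alters the measured transcripts. The gene tables held 91 live and 92 fixed cells of HCT-116 and 68 live and 83 fixed cells of HepG2. The labels name no other agent or genetic change in either line.

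The core of the proteasome is a barrel of alpha and beta subunits, and PSMB5, PSMB6 and PSMB7 carry its chymotrypsin-like, caspase-like and trypsin-like sites. After interferon exposure these subunits can be replaced by PSMB8, PSMB9 and PSMB10, which gives the immunoproteasome that shapes peptides for antigen presentation. A regulatory particle sits on the barrel. Its base holds the PSMC ATPases, which unfold substrates, and its lid holds the deubiquitinase PSMD14 and several scaffold subunits. Other caps (PSME1 to PSME4), the inhibitor PSMF1 and dedicated assembly chaperones complete the family.

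Each line and treatment counted as 1 sample, since no label ties cells to separate cultures, so the values are descriptions over cells without a p-value, and SDs are between cells. Values are TPM, transcript abundances divided by transcript length and scaled to a total, which can be set side by side between genes. The deposited totals per cell differed, with medians of 993455 (live) and 991193 (fixed) in HCT-116 and 895442 and 961172 in HepG2. Ratios in the deposited TPM are not corrected for these totals. Median depth, read from the steps of the low values, ranged from 1.8 to 2.5 M reads per cell over the 4 groups and was lower in fixed than in live cells of each line. Ribosomal RNA took 25.6% of TPM in live and 7.78% in fixed HCT-116, and 5.53% and 2.33% in HepG2. Because TPM is a share of the cell's total, the calls are also given under 2 other scalings. In the first, ribosomal RNA was left out and the rest of each cell was brought to the mean total of its line. Its shifts thus hold both steps, and the totals of the lines still differ. In the second, each cell was rescaled by the median ratio of widely detected genes. The labels name no library batch, so fixation and batch cannot be told apart. One live and 1 fixed HepG2 column held equal values, and 8 HepG2 columns correlated above 0.95 with another. With either set left out the same members were called in each comparison. Of 10 hepatocyte markers, 7 had a row for HepG2 and 0 exceeded 1 TPM in most cells, the highest being SERPINA1 at a mean of 2.27 TPM in live cells, so that the name HepG2 is used below as the label only. Of 7 intestinal epithelium markers, 4 had a row for HCT-116 and 2 exceeded 1 TPM in most cells (CDX2 and EPCAM), and of 5 blood markers 0 did so in either line.

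Proteasome genes were expressed at high levels in both lines, and the core subunits stood above those of the regulatory particle. In live HCT-116 the 46 genes summed to a lowest of 4197, a median of 7187 and a highest of 9972 TPM per cell (mean 7056 ± 1346, SD, n = 91 cells). The mean sum was 8785 ± 1957 TPM in fixed HCT-116, 9712 ± 2730.0 in live HepG2 and 12439.7 ± 2356 in fixed HepG2. By role, the median gene of live HCT-116 was at 284 TPM among the 7 alpha subunits, 308 TPM among the 3 catalytic and 367 TPM among the 4 other beta subunits, against 106.9 TPM among the 6 base ATPases and 102.7 TPM among the 8 lid subunits.

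Levels within a role were uneven, although the subunits of a ring enter the particle in equal numbers. Among the alpha subunits of live HCT-116, PSMA5 was lowest at 58.7 ± 20.6 TPM and PSMA7 highest at 538 ± 135.5 TPM, a 9.16-fold range. Among the noncatalytic beta subunits PSMB2 stood at 54.3 ± 16.6 and PSMB1 at 637 ± 152.9 TPM. PSMA5 and PSMB2 were the lowest, and PSMA7 and PSMB1 the highest, of these roles in all 4 groups. The catalytic subunits lay closer together, within a 1.27-fold range in live HCT-116 and a 1.66-fold range in fixed HepG2. The order of the levels was nearly kept between live and fixed cells, with a Spearman coefficient across genes of 0.98 in HCT-116 and 0.99 in HepG2, and was 0.88 between the live lines. Genes are not independent replicates in these coefficients.

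**Figure D1:**
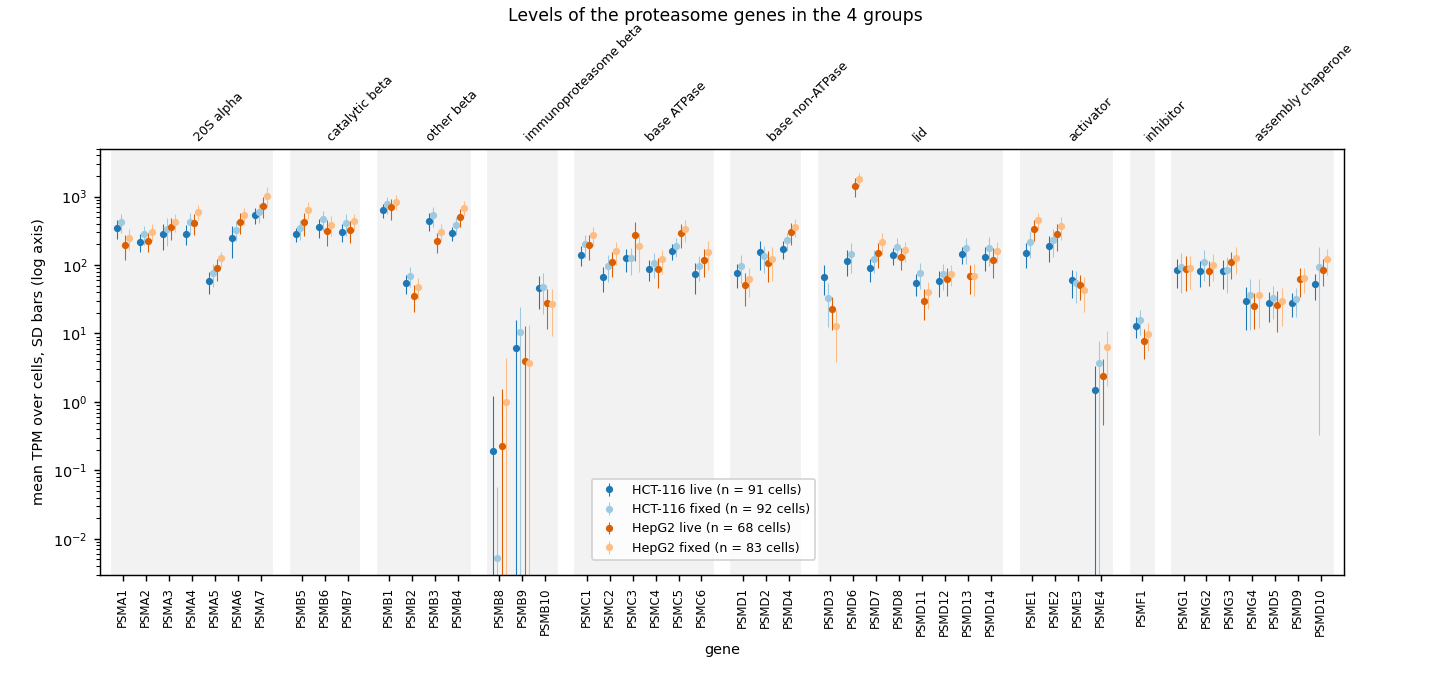
Mean TPM over cells (log axis) of the 46 genes, grouped by role, in live and fixed cells of both lines, with bars of 1 SD over cells that run to the lower edge of the plot where they would pass below 0. PSMD6 stands at 1423 and 1824 TPM in live and fixed HepG2 against 116.3 and 142.8 TPM in HCT-116, and PSMB8, PSMB9 and PSME4 are the lowest genes in each group.

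Most proteasome genes had slightly higher TPM in fixed than in live cells, while PSMD3 lay below and PSME4 above the others in both lines. Of the 46 genes, 45 averaged at least 1 TPM over both groups and were compared, and PSMB8 was left out by this filter. In HCT-116, 41 of the 45 had a log2 ratio of mean TPM (fixed over live) above 0 and 4 below. Their median was 0.34, against 0.17 for all 11813 genes compared and 0.31 for the 1764 genes of at least 50 TPM. In HepG2, 40 were above 0 and 5 below, with a median of 0.35 against 0.15 for all 12486 genes and 0.34 for the 1727 genes of at least 50 TPM. The median of the family thus lay close to that of other genes of high level. Of the genes of at least 50 TPM, 84.4% were above 0 in HCT-116 and 83.4% in HepG2.

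A 1.5-fold difference was passed upward in HCT-116 by 3 genes (PSMB9, PSME4 and PSMD10), where 12.3% of all genes passed it, and downward by 1 (PSMD3), where 16.4% did. In HepG2, 2 genes passed upward (PSMB5 and PSME4) against 15.6% of all genes, and 1 downward (PSMD3) against 17.6%. With ribosomal RNA left out, the median of all genes moved to -0.15 in HCT-116 and -0.03 in HepG2, and 24 members stood above 0 and 21 below in HCT-116, against 36 and 9 in HepG2. PSME4 was then the only member past the limit upward in either line, where 4.08% of all genes passed in HCT-116 and 9.18% in HepG2. PSMD3 passed it downward in both, joined by PSMC3 in HepG2, against 26.9% of all genes in HCT-116 and 22.5% in HepG2. After median ratio rescaling, the genes past the limit in HCT-116 were those of the deposited TPM, where 7.15% of all genes passed upward and 20.5% downward. In HepG2 they were PSME4 upward, against 8.37% of all genes, and PSMC3 and PSMD3 downward, against 22.3%. Relative to the median of all genes, 37 of 45 members were higher in each line, a count that was the same under both other scalings. Genes of at least 50 TPM also had a median above that of all genes, at 0.31 in HCT-116 and 0.34 in HepG2. The same held under both other scalings, so the count does not set the family apart from genes of high level. When cells of HepG2 were paired on total reads (46 pairs), 12 members passed upward, where 22.2% of all 12445 genes did, and 1 downward, where 17.7% did, with a median of 0.50 over the members and 0.22 over all genes.

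**Figure D2:**
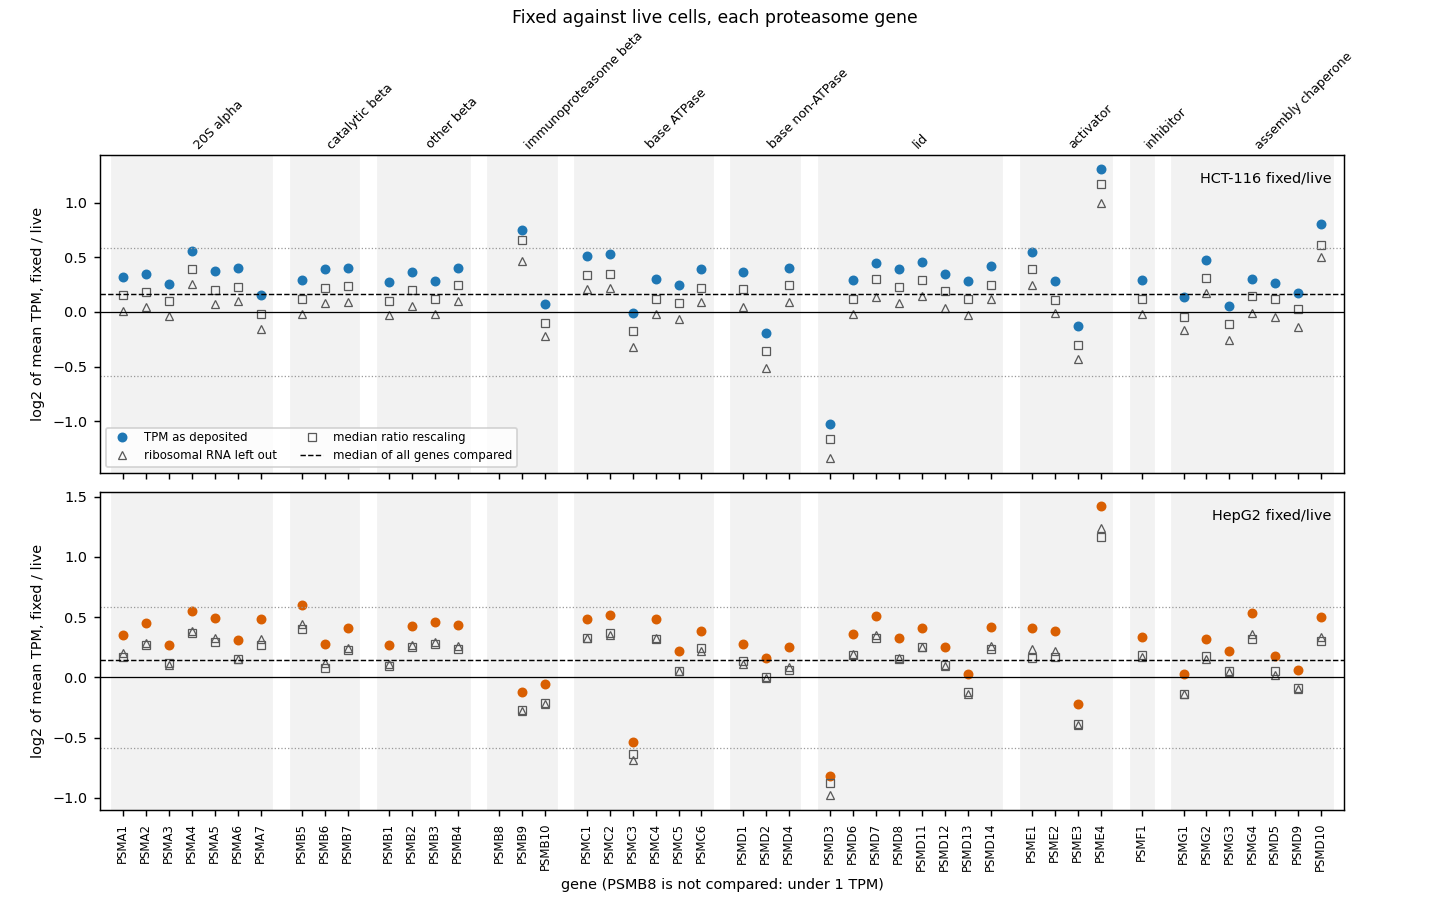
Log2 ratio of mean TPM, fixed over live, of each gene in HCT-116 (top) and HepG2 (bottom), with filled points for the deposited TPM, open points for 2 other scalings, the median of all genes dashed and the 1.5-fold limits dotted. PSME4 lies highest, at 1.31 and 1.42, and PSMD3 lowest, at -1.02 and -0.82, while most other genes lie between 0 and the upper limit in the deposited TPM.

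PSMD3, a scaffold subunit of the lid, was the most reduced gene. In live HCT-116 its lowest, median and highest TPM were 10.5, 66.9 and 178.4 (mean 67.5 ± 30.9), and in fixed HCT-116 0, 30.1 and 92.1 (mean 33.2 ± 20.7). In HepG2 they were 0, 22.9 and 54.6 in live cells (mean 22.7 ± 11.4) and 0, 11.5 and 38.9 in fixed cells (mean 12.9 ± 9.01). The ranges overlapped, but only 6 of 92 fixed HCT-116 cells and 11 of 83 fixed HepG2 cells exceeded the median live cell. The log2 ratios were -1.02 and -0.82. The other 7 lid genes had ratios from 0.28 (PSMD13) to 0.46 (PSMD11) in HCT-116 and from 0.03 (PSMD13) to 0.51 (PSMD7) in HepG2, and the deubiquitinase PSMD14 had 0.42 and 0.42.

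The representative transcript of PSMD3 has a GC content of 58.5%, where the 45 genes compared had a median of 48.4%. Across the 45 genes GC content and the fixed-to-live ratio had a Spearman coefficient of -0.38 in HCT-116 and -0.29 in HepG2, and across all genes with a GC value -0.48 and -0.30. The 6 members of at least 10 TPM and at least 55% GC (PSMB6, PSMB10, PSMC3, PSMD3, PSMD8 and PSMG3) had median ratios of 0.07 and 0.08 in the lines, and the 16 members under 45% GC had 0.37 in both. The part of GC content in the value of PSMD3 was not tested.

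PSME4, a nuclear cap linked to histone turnover, had the highest ratio, at a low level. Its lowest, median and highest TPM were 0, 0.967 and 12.7 in live HCT-116 (mean 1.48 ± 1.84) and 0, 2.83 and 22.5 in fixed HCT-116 (mean 3.68 ± 3.96). In HepG2 they were 0, 1.92 and 8.40 in live cells (mean 2.37 ± 1.91) and 0, 5.39 and 23.3 in fixed cells (mean 6.33 ± 4.61). The ranges overlapped, with 66 of 92 fixed HCT-116 cells and 70 of 83 fixed HepG2 cells above the median live cell. The log2 ratios were 1.31 and 1.42, and they ran from 1.23 to 1.44 and from 1.37 to 1.48 when any 1 cell was left out. Its transcript of 7250 bases is exceeded among members by that of PSMF1, the inhibitor of the core, whose ratios were 0.29 and 0.34.

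Of the other caps, PSME1 and PSME2, which form 1 interferon-inducible activator, had HCT-116 ratios of 0.55 and 0.29 and HepG2 ratios of 0.41 and 0.38. PSME3, which forms a nuclear activator by itself, was below 0 in both lines, at -0.12 and -0.22. PSMC3 and PSMD3 were the other genes below 0 in both. PSMC3, a base ATPase, was at 125.97 ± 48.2 and 125.4 ± 54.2 TPM in live and fixed cells of HCT-116, a ratio of -0.01. In HepG2 it was at 273 ± 156.9 and 188.5 ± 108.2 TPM, a ratio of -0.53 that passed the limit downward under both other scalings and in medians over cells, and that was -0.21 and short of the limit over cells paired on total reads. The other 5 ATPases had ratios from 0.25 (PSMC5) to 0.53 (PSMC2) in HCT-116 and from 0.22 (PSMC5) to 0.52 (PSMC2) in HepG2. PSMD2, the large scaffold of the base, was at -0.19 in HCT-116 and 0.16 in HepG2.

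Within the core, the alpha subunits ranged from 0.16 (PSMA7) to 0.56 (PSMA4) in HCT-116 and from 0.26 (PSMA3) to 0.55 (PSMA4) in HepG2. The noncatalytic beta subunits ranged from 0.28 (PSMB1) to 0.41 (PSMB4) and from 0.27 (PSMB1) to 0.46 (PSMB3). Of the catalytic subunits, PSMB5 was at 279 ± 65.8 and 342 ± 109 TPM in HCT-116, live and fixed (0.29) and at 424 ± 158.6 and 643 ± 179.9 TPM in HepG2 (0.60). The HepG2 value lay just past the limit, and leaving out any of 3 cells ended the call, the lowest value being 0.58. PSMB6 and PSMB7 had HCT-116 ratios of 0.39 and 0.40 and HepG2 ratios of 0.28 and 0.41. The sum of all 46 genes had a ratio of 0.32 in HCT-116 and 0.36 in HepG2, and with ribosomal RNA left out 0.0080 and 0.19.

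Among the assembly chaperones, PSMD10, also known as gankyrin, had the highest ratio in HCT-116 at 0.81, from 52.7 ± 22.3 TPM in live to 92.1 ± 91.8 TPM in fixed cells. One fixed cell stood at 863 TPM, without which the ratio was 0.67. PSMD10 was at 0.50 in HepG2. The other 6 chaperones ranged from 0.05 (PSMG3) to 0.48 (PSMG2) in HCT-116 and from 0.03 (PSMG1) to 0.53 (PSMG4) in HepG2. PSMC3IP, set apart from the family, had 0.09 and 0.21.

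The immunoproteasome subunits were far below the catalytic subunits they can replace. PSMB8 was detected in 4 of 91 live and 1 of 92 fixed HCT-116 cells, and in 2 of 68 live and 13 of 83 fixed HepG2 cells. The last is 15.7% (exact Clopper-Pearson 95% interval 8.61 to 25.3%, for counting error only) against 2.94% (0.358 to 10.2%) in live HepG2. Its mean stayed under 1 TPM in each group, so no fold is given. PSMB9 was detected in 52 of 91 live and 58 of 92 fixed HCT-116 cells and in 23 of 68 live and 26 of 83 fixed HepG2 cells.

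In HCT-116 the median and highest TPM of PSMB9 were 2.90 and 63.8 in live and 7.20 and 85.2 in fixed cells (means 6.20 ± 9.64 and 10.5 ± 13.6), a log2 ratio of 0.75 that fell short of the limit with ribosomal RNA left out. In HepG2 the median was 0 in both and the means were 4.01 ± 8.80 and 3.68 ± 9.81 TPM, a ratio of -0.12. Over the HepG2 cells paired on total reads PSMB9 had means of 2.64 and 5.18 TPM, live and fixed, so that its ratio turned to 0.97 and passed the limit upward. PSMB10 was found in nearly all cells, at means of 45.9 ± 23.4 and 48.4 ± 29.05 TPM in HCT-116, live and fixed, and 27.8 ± 16.4 and 26.8 ± 17.8 TPM in HepG2. As a share of the subunit each replaces, PSMB9 ran from 0.953% (fixed HepG2) to 2.25% (fixed HCT-116) of PSMB6, PSMB10 from 6.20% (fixed HepG2) to 14.9% (live HCT-116) of PSMB7, and PSMB8 reached at most 0.153% of PSMB5. In 0 cells of the 4 groups was the inducible subunit higher than its constitutive partner.

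Over single cells PSMB9 and TAP1, the peptide transporter gene beside it, had a Spearman coefficient of 0.64 in live HepG2, where 23 cells had both, and of 0.01, 0.10 and 0.13 in live HCT-116, fixed HCT-116 and fixed HepG2. These coefficients describe sparse values.

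**Figure D3:**
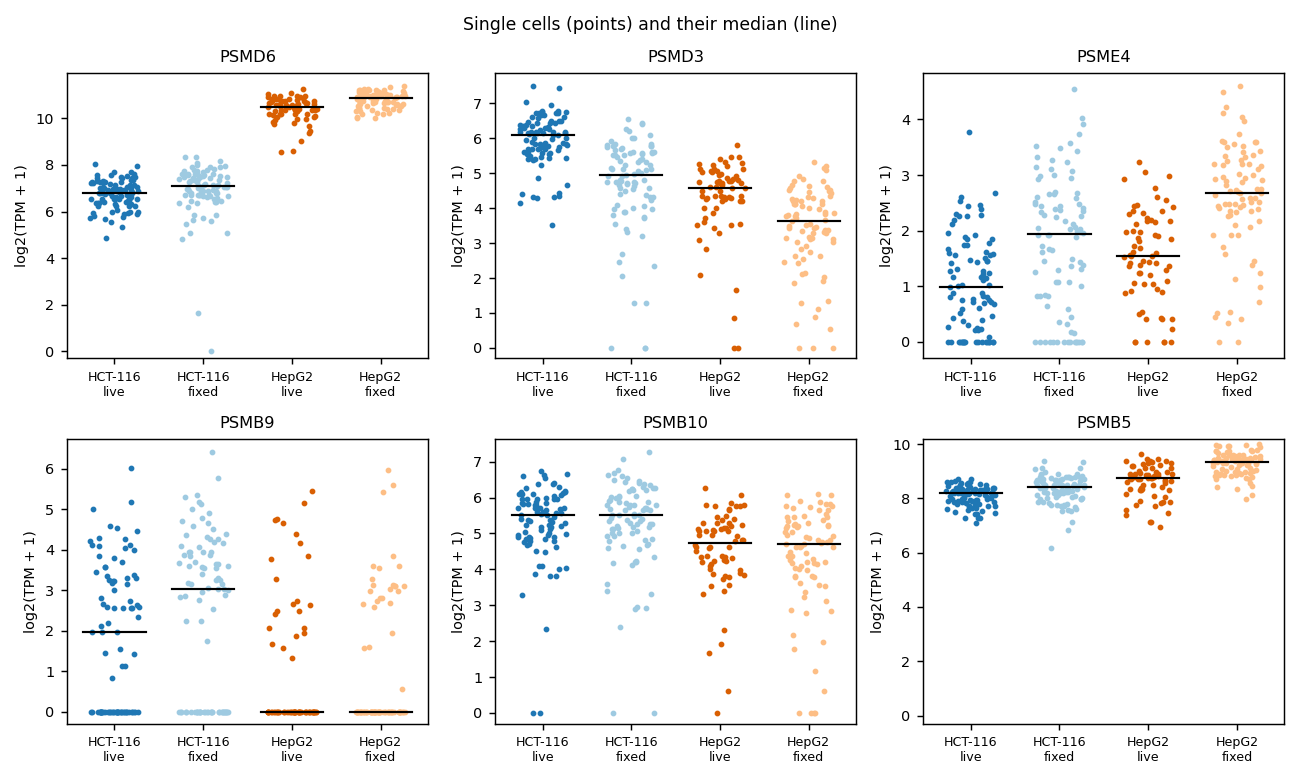
Log2(TPM + 1) of 6 genes in single cells (points) of the 4 groups, with the median of each group as a line. PSMD6 separates the lines with no overlap, PSMD3 lies lower and PSME4 higher in most fixed than in most live cells of each line, and the median of PSMB9 is 0 in HepG2.

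Between the lines, PSMD6, a lid subunit, stood apart from the other members. In live HCT-116 its lowest, median and highest TPM were 27.9, 110.7 and 260.4 (mean 116.3 ± 46.7), and in live HepG2 375, 1448 and 2457 (mean 1423 ± 431). In fixed cells they were 0, 135.2 and 325 in HCT-116 (mean 142.8 ± 66.8) and 1022, 1904 and 2644 in HepG2 (mean 1824 ± 392). All 68 live and all 83 fixed HepG2 cells lay above the highest HCT-116 cell of the same treatment. The log2 ratio (HepG2 over HCT-116) was 3.61 in live and 3.68 in fixed cells.

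PSMD6 was the only 1 of the 45 compared members with ranges apart, and with HepG2 higher this held for 0.176% of all genes compared in live and 0.123% in fixed cells. By ratio it ranked 34 of 1679 genes of at least 50 TPM in live and 32 of 1872 in fixed cells. It made up 1.65% of the summed proteasome TPM in live HCT-116 and 14.7% in live HepG2. The other 7 lid genes had a median ratio of -0.13 in live cells.

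The same transcripts carried most PSMD6 reads in both lines. Of 6 listed, NM_001271781.1 held 42.8% of the reads in live HCT-116 and 53.9% in live HepG2, and NM_014814.2 held 43.7% and 38.99%. PSMD6 lies at chr3:64010551-64024007 (GRCh38), and several of its neighbours, named here after their values were seen, were also higher in live HepG2. THOC7 was at 76.6 ± 35.8 and 389.9 ± 95.03 TPM in live HCT-116 and HepG2, ATXN7 at 0.743 and 2.47 TPM, and PRICKLE2 at 0.0197 and 4.04 TPM. PSMD6-AS2, whose span overlaps PSMD6 so that reads cannot be told apart without strand, was at 0.625 and 3.29 TPM. Farther along the chromosome, FHIT was lower in HepG2, at 10.396 and 1.72 TPM, and SUCLG2 was at 26.5 and 27.98 TPM. What sets these levels was not tested.

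The bases around a listed start of PSMD6 are shown because no other member differed between the lines by as much. They run from 250 bases before that start to 50 after, at chr3:64023445-64023744 on the minus strand (RefSeq, GRCh38.p14). This window lies inside the span of PSMD6 given above, which reaches further upstream. Capitals mark a CCAAT motif on the opposite strand, at position -192 from that start.

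PSMD6: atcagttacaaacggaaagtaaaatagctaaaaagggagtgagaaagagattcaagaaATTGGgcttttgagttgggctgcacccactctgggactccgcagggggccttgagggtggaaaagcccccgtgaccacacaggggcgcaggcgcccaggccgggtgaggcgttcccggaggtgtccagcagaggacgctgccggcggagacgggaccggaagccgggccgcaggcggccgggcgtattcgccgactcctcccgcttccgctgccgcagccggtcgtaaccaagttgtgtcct

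Other members differed between the lines in both directions. In live cells 15 members were at least 1.5-fold higher in HepG2, where 32.6% of all 12481 genes were, and 9 were lower, where 28% were. In fixed cells 17 were higher against 32.6% of 12232 genes, and 9 lower against 27.9%. With ribosomal RNA left out, a setting in which each line was scaled to its own mean total, the live counts were 4 higher and 11 lower. Of all genes 25.8% were then higher and 37% lower. The fixed counts were then 9 and 10 against 28.8% and 32.2%, while the median of all genes moved from 0.07 to -0.21 in live and from 0.07 to -0.07 in fixed cells.

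Besides PSMD6, the members higher in live HepG2 under all 3 scalings were PSMC3 (1.11), PSMD9 (1.15) and PSME1 (1.17). PSMD9, a chaperone of base assembly, was at 28.2 ± 10.9 and 62.7 ± 28.4 TPM in live HCT-116 and HepG2, and PSME1 at 149.8 ± 59.8 and 337 ± 113.2 TPM. The PSMC3 ratio was 0.59 in fixed cells, where leaving out any 1 of 65 cells ended the call. PSMG3 in fixed cells (0.60) lost its call without any 1 of 5 cells and PSMB9 in live cells (-0.63) without any 1 of 4.

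Lower in HepG2 under all 3 scalings and in both treatments were PSMA1, PSMB3, PSMB9, PSMB10, PSMD3, PSMD11, PSMD13 and PSMF1. PSMD3 had the lowest live ratio, at -1.57, followed by the lid subunit PSMD13 at -1.08, which was at 144.3 ± 41.6 TPM in HCT-116 and 68.4 ± 30.3 TPM in HepG2. PSMB3 was at 441 ± 126.6 and 224 ± 73.8 TPM, a ratio of -0.98. The alpha ring held PSMA1 at -0.82 and PSMA6 at 0.78, the beta ring PSMB3 at -0.98 and PSMB4 at 0.79, and the lid, besides PSMD6, PSMD3 at -1.57 and PSMD7 at 0.77. The ATPase ring ran from -0.02 (PSMC4) to 1.11 (PSMC3), with 4 of its 6 members (PSMC2, PSMC3, PSMC5 and PSMC6) past the limit upward and 0 downward in the deposited TPM. Without PSMD6 the family summed to 6939.6 ± 1319 TPM in live HCT-116 and 8289 ± 2353 TPM in live HepG2.

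**Figure D4:**
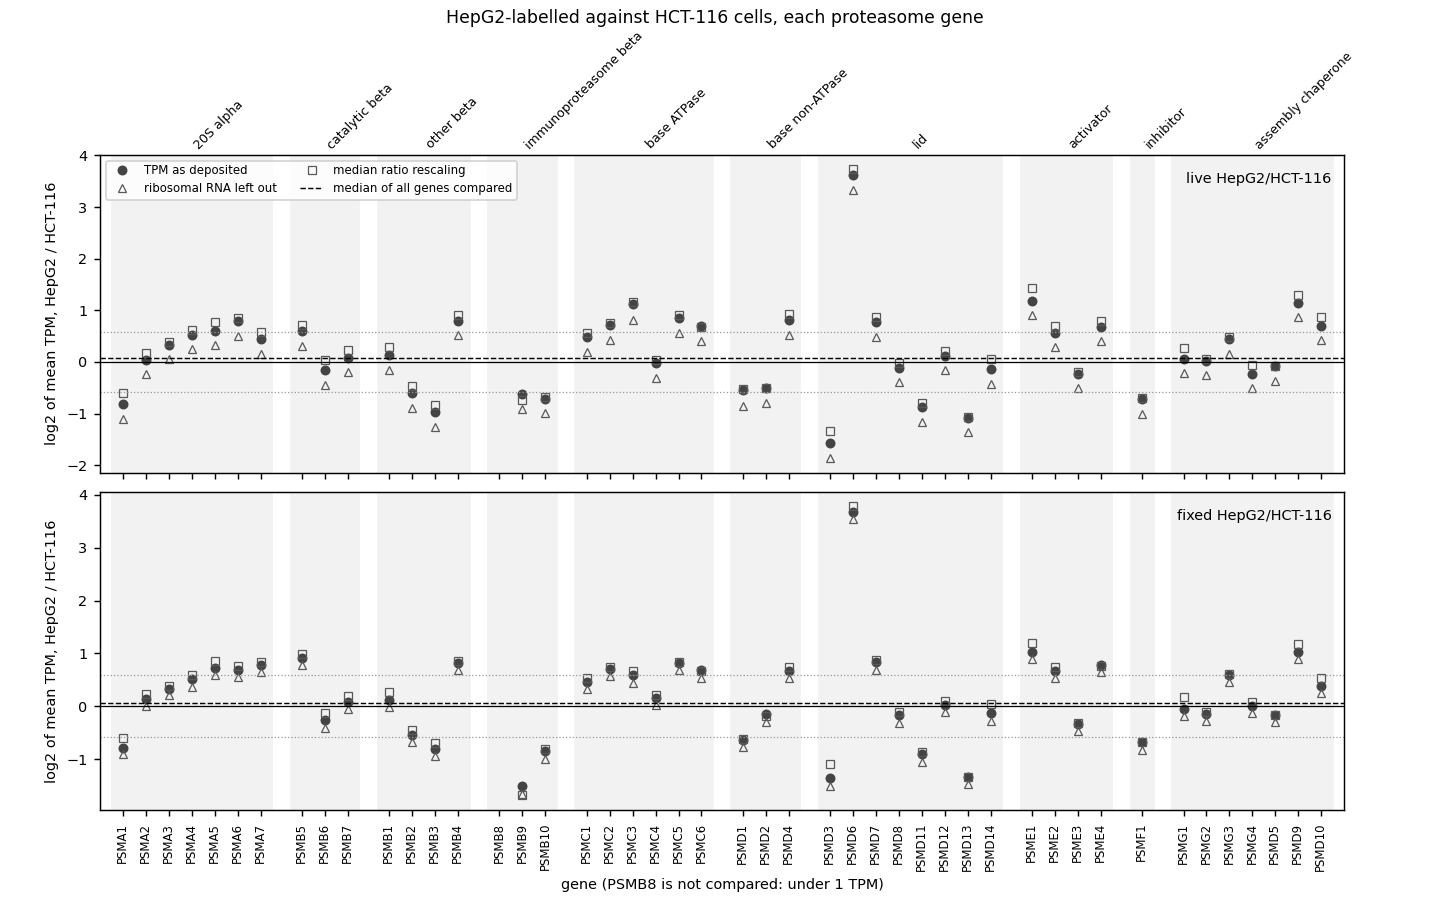
Log2 ratio of mean TPM, HepG2 over HCT-116, of each gene in live (top) and fixed (bottom) cells, with open points for 2 other scalings, the median of all genes dashed and the 1.5-fold limits dotted. PSMD6 lies at 3.61 and 3.68, while the other members lie between -1.57 and 1.17 in live cells in the deposited TPM.

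The transcript tables listed 1 transcript for 16 members and several for 30. The largest difference in transcript use between the lines was in PSMG4, an assembly chaperone of the core. Its transcript NM_001128592.1 held 9.42% of the gene's reads in live and 7.80% in fixed HCT-116, and 41.04% and 40.6% in live and fixed HepG2. In PSMB5, NM_001130725.1 held 24.02% in live HCT-116 and 36.9% in live HepG2, and in PSMD2, NM_001278708.1 held 14.3% and 24.6%. The shares are estimates that divide reads between overlapping transcripts.

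Proteasome genes were detected in nearly every cell and varied somewhat less than other genes of like level. Of the 46 genes, 43 were detected in at least 95% of cells in 3 groups, the exceptions being PSMB8, PSMB9 and PSME4, and 44 in fixed HepG2. No share among other genes of like level stands beside these counts, so they do not set the family apart. The 36 members of 50 to 500 TPM in live HCT-116 had a median coefficient of variation (SD over mean) of 0.376, where 1492 genes in that range had 0.404. In fixed HepG2 the 28 members in that range had 0.360 and 1569 genes 0.430. Leaving out the immunoproteasome subunits, PSMB5 was the steadiest in live HCT-116 (0.236) and PSMD6 in fixed HepG2 (0.215), and PSME4 was the most variable in each group, up to 1.24 in live HCT-116.

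Over single cells most pairs of proteasome genes rose and fell together. The 903 pairs of 43 members had a median Spearman coefficient of 0.32 in live HCT-116, 0.30 in fixed HCT-116, 0.52 in live HepG2 and 0.33 in fixed HepG2. Median ratio rescaling gave 0.15, 0.13, 0.23 and 0.16. In live HepG2 the summed proteasome level followed the total of the cell's gene table (coefficient 0.80), and over the 30 cells whose table totalled at least 900000 TPM, a limit set with the values in view, the median of the pairs was 0.27. The 14 constitutive core subunits had medians from 0.45 to 0.67 over the groups, the 17 base and lid subunits from 0.37 to 0.64, the 8 CCT chaperonin genes from 0.66 to 0.73 and 77 ribosomal protein genes from 0.35 to 0.46. After median ratio rescaling these ranges were 0.26 to 0.39 for the core, 0.18 to 0.36 for the base and lid, 0.46 to 0.54 for the chaperonin and 0.54 to 0.64 for the ribosomal proteins, so the order of these sets depended on the scaling. The labels name no library batch, and a HepG2 group may pool the separate experiments named in the methods. Cells also differ in depth, so these are descriptions.

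The pairs with the highest mean over the 4 groups were PSMC1 with PSMD12 (0.64), PSMD6 with PSMD12 (0.64) and PSMA4 with PSMB2 (0.64). PSMD6, despite its level, followed the other members within each line, with a median coefficient to them of 0.37 in live HCT-116 and 0.65 in live HepG2. PSME1 and PSME4 stood outside. The median coefficient of PSME1 was -0.03 and 0.01 in live and fixed HCT-116 and 0.15 and 0.01 in HepG2, and that of PSME4 0.04, 0.02, 0.15 and 0.04. PSME1 did follow its partner PSME2, with coefficients of 0.53 and 0.44 in live and fixed cells of HCT-116 and of 0.34 and 0.37 in those of HepG2. The median coefficient of PSME2 to the other members was 0.09 and 0.15 in live and fixed HCT-116 and 0.50 and 0.27 in HepG2. That of PSME3 was 0.40 in live HCT-116. In fixed HepG2, PSMG4 (0.06) and PSMD10 (0.08) were also near 0.

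**Figure D5:**
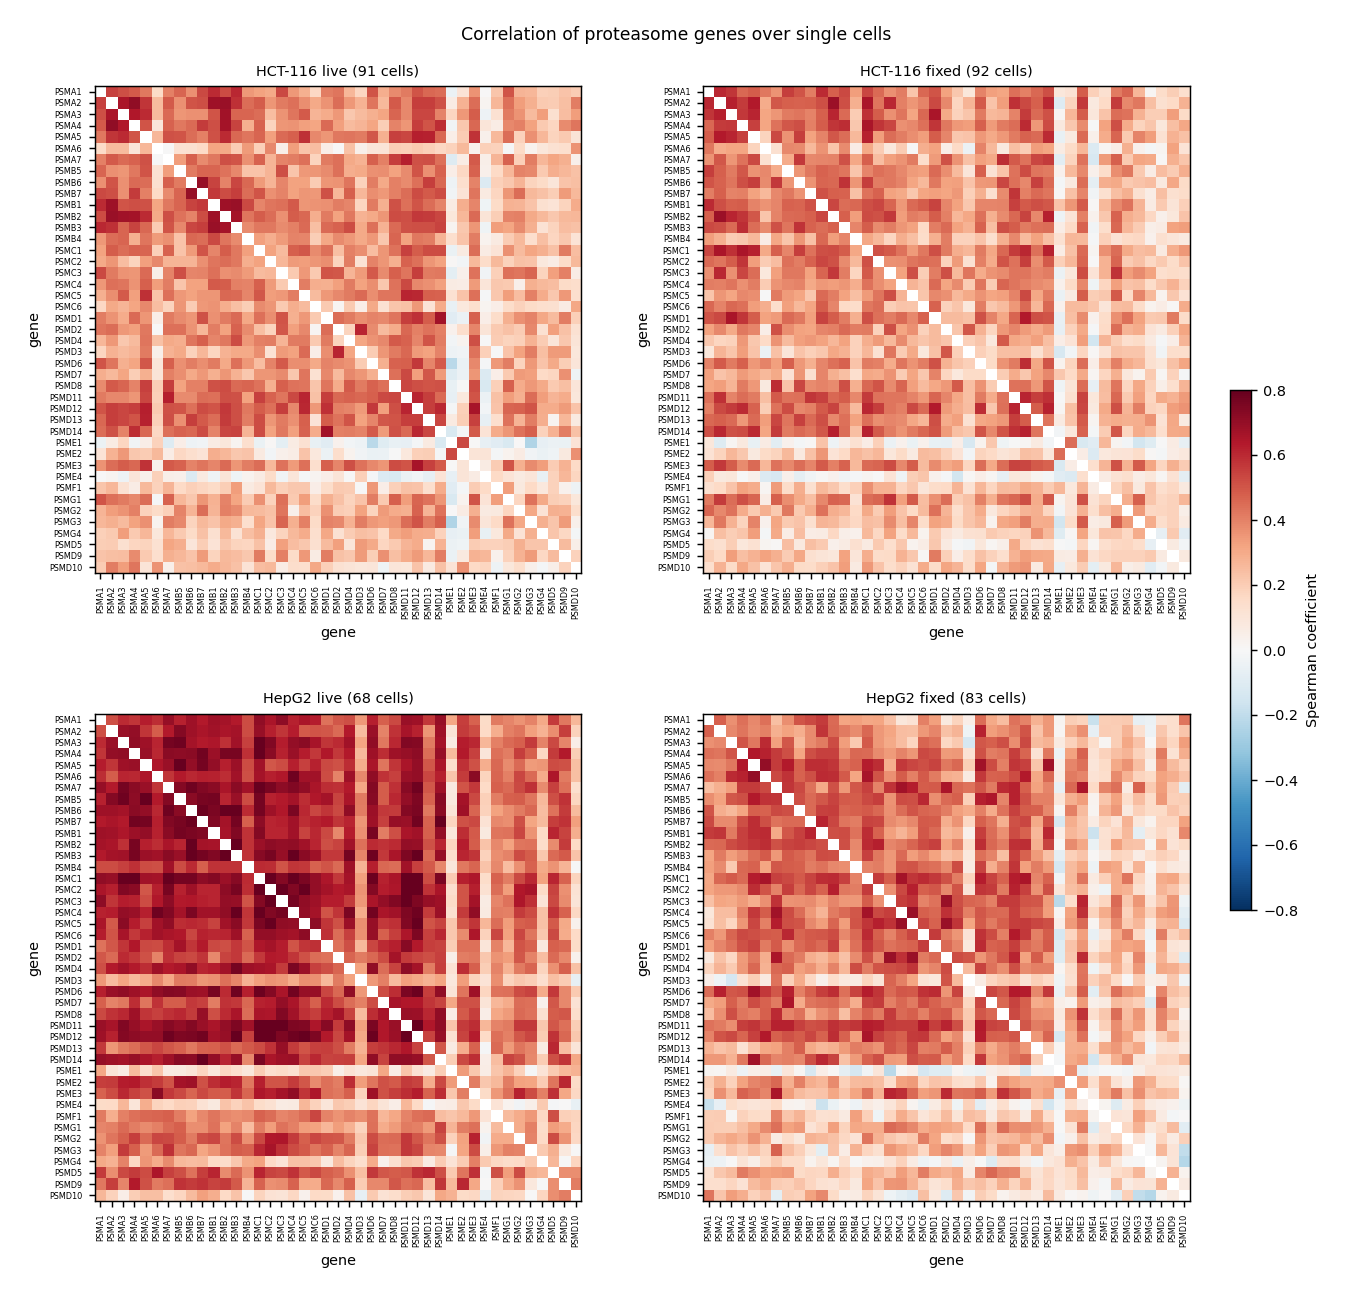
Spearman coefficient over cells of each pair of 43 proteasome genes, ordered by role, in each of the 4 groups (color scale). Most of the field is positive, with medians of 0.32, 0.30, 0.52 and 0.33, and bands near 0 run along PSME1 and PSME4.

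Of 3889 genes outside the family with at least 10 TPM in each group, those most like the summed proteasome level, by the mean Spearman coefficient over the 4 groups, were CCT5 (0.73), CCT2 (0.705), CCT3 (0.696), CCT6A (0.69), TCP1 (0.69), CYCS (0.69), PTGES3 (0.69), POMP (0.68), CCT7 (0.68) and SNRPB (0.675). TCP1 and the CCT genes encode the chaperonin that folds actin and tubulin, CYCS encodes cytochrome c, and POMP is the maturation factor of the core barrel. All 8 chaperonin genes were among the first 41. At the other end stood the humanin-like MTRNR2L1 (-0.44) and the stress-induced DDIT4 (-0.42).

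The wider pathway was read from 28 genes outside the symbol pattern. In fixed against live HCT-116, 2 passed 1.5-fold upward (PAAF1 and RAD23B) and 2 downward (DDI2 and UBA1), against 12.3% and 16.4% of all genes, with a median of 0.21. In HepG2, 3 passed upward (RAD23B, NGLY1 and ECPAS) and 1 downward (UBA1), against 15.6% and 17.6%, with a median of 0.28. UBA1, the main ubiquitin-activating enzyme, was at 111.3 ± 29.7 and 70.4 ± 28.4 TPM in HCT-116, live and fixed (-0.66) and at 95.5 ± 34.03 and 59.3 ± 34.99 TPM in HepG2 (-0.69). POMP had ratios of 0.43 and 0.58, the latter just short of the limit. NFE2L1, a transcription factor that drives proteasome genes when degradation is blocked, was at 3.65 ± 3.23 and 3.59 ± 2.99 TPM in HCT-116, live and fixed. Between the live lines, 2 of the 28 were higher in HepG2, the assembly chaperone PAAF1 (2.24) and the small lid subunit SEM1 (1.13), and 4 were lower, against 32.6% and 28% of all genes.

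NFE2L1 acts through antioxidant response elements, and because the members moved together over cells their promoters were searched for its core letters, TGACNNNGC, and for CCAAT, on both strands of the 300 bases from 250 before to 50 after each RefSeq start (GRCh38.p14). Promoters were matched for 40 of the 46 genes. TGACNNNGC was held by 15 of the 40 (37.5%), against 16.1% of 27305 genes with a promoter, and CCAAT by 19 (47.5%) against 39.7%. No test was run on these shares, and a match is a description and not a binding site. Windows around the match are shown for some of the genes that hold one, written along the gene with the match in capitals. PSMD6, PSMC3, PSMD10 and PSMB5, also named in the comparisons above, held no match. PSMD9 held matches that are not shown. A match that starts with GC lies on the opposite strand.

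PSMD3 (chr17:39980760-39980788, plus strand): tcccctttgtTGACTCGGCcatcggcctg
PSME4 (chr2:53971009-53971037, minus strand): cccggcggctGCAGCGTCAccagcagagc
PSMB9 (chr6:32854034-32854062, plus strand): gggcggggctGCCTCGTCActtgtctcgg
PSME1 (chr14:24136098-24136126, plus strand): atggcagggcTGACCCCGCctcctccatc
PSME2 (chr14:24146767-24146795, minus strand): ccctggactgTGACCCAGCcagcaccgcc
PSMA4 (chr15:78540650-78540678, plus strand): gtgggcacgaTGACTCTGCaccgcctcct
PSMB3 (chr17:38752627-38752655, plus strand): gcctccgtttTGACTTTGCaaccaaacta
PSMD12 (chr17:67366724-67366752, minus strand): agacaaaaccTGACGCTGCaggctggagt

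From the start, the match shown begins at -37 in PSMD3, -34 in PSME4, -148 in PSMB9, -86 in PSME1, -175 in PSME2, -126 in PSMA4, -104 in PSMB3 and -165 in PSMD12. PSMD3 held another match, on the opposite strand, that begins at 34. Genes with a match stood at both ends of the fixed-to-live ratios (PSME4 and PSMD3) and at both ends of the coefficients over cells in live HCT-116 (PSMD12 and PSME1).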

How the data were processed

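Smart-seq2 reads were quantified by the authors with kallisto 0.46.0 and summed to genes with tximport. The methods name an ENSEMBL GRCh38 reference, while the deposited transcript tables carry RefSeq accessions. The deposited gene tables hold TPM, and the deposited transcript tables hold CPM not divided by length. Columns were assigned to groups by name, and labelled cells without a column were not analysed here. The labels do not separate the 2 HepG2 experiments named in the methods.

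The main value was the log2 ratio of mean TPM over cells, for genes of at least 1 TPM over both groups, called past 1.5-fold. The procedure was tested on simulated data, drawn for each gene separately from its mean and spread in live cells. Of unchanged genes, 4.45% passed the limit for HCT-116 and 5.18% for HepG2, and of genes changed by a log2 of 1, 89.5% and 91%. The simulation held no difference in depth or ribosomal RNA, so it does not address these. Alternatives were pseudocounts of 1 and 0.1, medians, filters of 5 TPM or none, a 2-fold limit, other scalings and other sets of cells. GC content and transcript length came from GENCODE release 44, and coordinates from RefSeq. Members and lists were chosen with earlier results of these data known. Named were the catalytic, immunoproteasome and cap genes, the extremes of each role, the called members and the 10 genes most like the summed level. Python 3.11.15, numpy 2.4.6, pandas 2.3.3 and scipy 1.17.1 were used. One further gene list is not reported here.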

Additional observations from a re-analysis of the deposited data

Results flagged for a closer look

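The fixed-over-live log2 ratio of PSMB9 had opposite signs in the lines, 0.75 in HCT-116 and -0.12 in HepG2. Over cells paired on total reads the signs were the same, at 0.69 and 0.97. The difference between the lines was not tested, since each line and treatment is 1 sample. PSMB9 was detected in 52 of 91 and 58 of 92 cells in HCT-116 (live, fixed) and in 23 of 68 and 26 of 83 in HepG2. Leaving out single cells gave values from 0.64 to 0.91 in HCT-116.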

How the results depend on the processing

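With a 2-fold limit, which by construction calls fewer genes, 2 members passed in fixed against live HCT-116 and 1 in HepG2, and 6 in live and 6 in fixed cells between the lines. With ribosomal RNA left out, 2 passed in HCT-116 (4 in the main setting) and 15 between the live lines (24), and the ratio of the summed level in HCT-116 was 0.0080 (0.32). Over cells paired on total reads, 13 passed in HepG2 (3), and the HepG2 ratio of PSMB9 turned from -0.12 to 0.97, upward past the limit. Median ratio rescaling gave median coefficients of variation of 0.717 in live and 0.584 in fixed HepG2, and median pair coefficients of 0.129 in fixed HCT-116 and 0.231 in live HepG2. The latter was 0.273 with cells of low table totals left out, an alternative added after seeing the data. Of the 10 genes most like the summed level, 6 were kept with Pearson coefficients. The cause of these shifts was not tested. Among the other values, of single genes and roles, 2170 were marked as kept and 2 as moved. The count is no measure of stability. It holds settings that cannot change a ratio, such as the 2-fold limit and the filters on low values. It also holds leave-one-out values, which were not set against a spread. The rest were judged by the spread between cells, which is wide, so such a value may still pass or lose the limit. Depth per cell limits what can be said of PSMB8, PSMB9 and PSME4. No paired analysis was possible because the columns carry no number that ties live to fixed cells and no result comes from a test.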
